A study of Rattus norvegicus and Mus musculus with 61 samples.

Results

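Of the 61 arrays of the series, 5 are described here: cortex of rats killed 72 h after fluid percussion injury (3 arrays) and 72 h after sham surgery (2 arrays), chosen by the labelled species, operation and time. All were male Sprague-Dawley rats of 400 ± 25 g under sodium pentobarbital, and each array held RNA from 1 rat. The injury was a fluid pressure pulse of 2.5 atm onto the exposed dura, which deforms the brain beneath. In both groups the tissue was a disk of parieto-occipital cortex, 7 mm across, which in injured rats lay around the impact and held the contused tissue. A further set of controls comprised the other 17 uninjured rat arrays, 14 from sham surgery at other times and 3 from naive rats, which had no operation. The remaining rat arrays, from injured cortex at other times, entered the error estimate and the comparisons over time.

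A contusion kills neurons and tears vessels, and the tissue around it then passes through an inflammatory and repair phase. Microglia, the resident phagocytes of the brain, and macrophages entering from blood take up debris, while astrocytes enlarge and switch on filament and secreted proteins, a state called reactive. Phagocytes, astrocytes and vessel cells can also divide in this phase, and scar matrix begins to be laid down.

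The 5 arrays were not alike in technical measures. Each carries 15 antisense control probe sets, which target the opposite strand of control genes and serve as a measure of unspecific signal. Their median signal was 83.0, 291 and 293 on the injury arrays (replicates 1, 2 and 3), against 53.1 and 89.9 on the sham arrays. Injury replicates 2 and 3 thus lay above both sham arrays, while injury replicate 1 lay between them. The difference was 1.47 on the log2 scale (exact two-sided permutation test, p = 0.3), and 3 against 2 arrays cannot give a p below 0.1. On the other 17 uninjured arrays the signal ran from 83.0 to 789 with a median of 261, so the high injury arrays lay inside that range and sham replicate 1 below it. Across genes, injury replicate 1 correlated at 0.922 and 0.918 with the sham arrays, injury replicates 2 and 3 at 0.811 to 0.851, and the sham arrays with each other at 0.953. The ratio of 3′ to 5′ signal for Gapdh, a measure of RNA integrity, was 1.47, 0.709 and 0.655 on the injury arrays, against 1.62 and 1.14 on the sham arrays. The same ratio for beta-actin was 1.56, 1.32 and 1.73, against 2.11 and 1.66, and did not set injury replicates 2 and 3 apart from replicate 1.

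**Figure D1:**
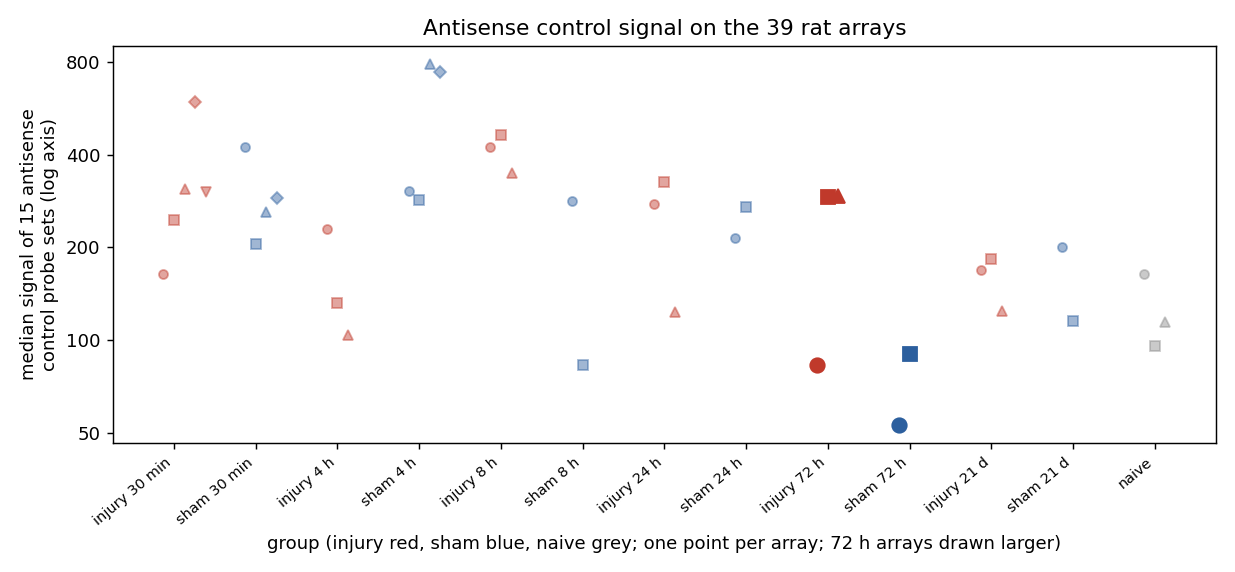
Median signal of the 15 antisense control probe sets on each of the 39 rat arrays (log axis; one point per array; injury red, sham blue, naive grey; marker shapes stand for replicate numbers; 72 h arrays drawn larger). At 72 h, injury replicates 2 and 3 sit at 291 and 293 and injury replicate 1 at 83.0, against 53.1 and 89.9 on the sham arrays.

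At 72 h, 86 genes rose and 27 fell among 4091 tested, or 2.1% and 0.66% of them (2.76% together; limma on log2 signal over all 39 rat arrays, Benjamini-Hochberg adjusted p under 0.05). Among the genes that rose were many of phagocytes, reactive astrocytes, antigen presentation and cell division, and among those that fell were 3 of 30 neuronal and synaptic genes and 2 of 15 cholesterol synthesis genes. Without adjustment, 609 genes (14.9%) had a p under 0.05. The median difference over all genes was 0.066 on the log2 scale. All 86 rises had every injury array above both sham arrays, as did 779 (19%) of all genes, and all 27 falls had every injury array below both, as did 616 (15.1%). Of the rises 53 were at least 4-fold, and of the falls 7. Leaving out an array also leaves fewer arrays in its group, so a lost call need not mean that the effect changed. With each of the 5 arrays left out in turn, the log2 difference of the complement gene C1qb ran from 2.27 to 2.47. That of the lipid carrier gene Apoe ran from -4.63 to -1.51. The number called changed as single arrays were left out. It was 326 without injury replicate 1, 41 without injury replicate 2 and 18 without injury replicate 3. It was 19 without sham replicate 1 and 22 without sham replicate 2, where the lone sham array is assumed to vary like the other groups. With injury replicate 1 as the only injury array, a setting chosen after seeing the data, 7 genes passed. Of the 44 rises that the rule for named genes picks, 11 kept their call with each of the 5 arrays left out in turn, and of its 17 falls 0 did.

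The largest rise was that of Spp1, which encodes osteopontin, a secreted protein of activated macrophages and microglia. Its signal was 5483, 10395 and 17506 on the injury arrays, against 71.2 and 92.5 on the sham arrays. Every injury array lay far above both sham arrays and above all 17 other uninjured arrays, whose highest value was 274. The difference was 6.94 ± 0.66 on the log2 scale (SE), or 123-fold (95% interval 48.4 to 314; limma, adjusted p = 2.4e-08). Lgals3, which encodes galectin 3, a lectin of phagocytes, gave 2575, 3958 and 12128 in injured cortex, against 196 and 173 in sham cortex. The groups did not overlap, and the rise was 27.1-fold (95% interval 12.6 to 58.5; log2 4.76 ± 0.54, limma adjusted p = 9.87e-07). Apobec1, an RNA-editing enzyme, had signals of 493, 697 and 1027 after injury, while both sham arrays sat at the floor of 32.1. Its rise of at least 22-fold is therefore a lower bound (log2 4.46 ± 0.53, limma adjusted p = 1.26e-06). Spp1, Lgals3 and Apobec1 kept their calls under each of 17 alternative settings.

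**Figure D2:**
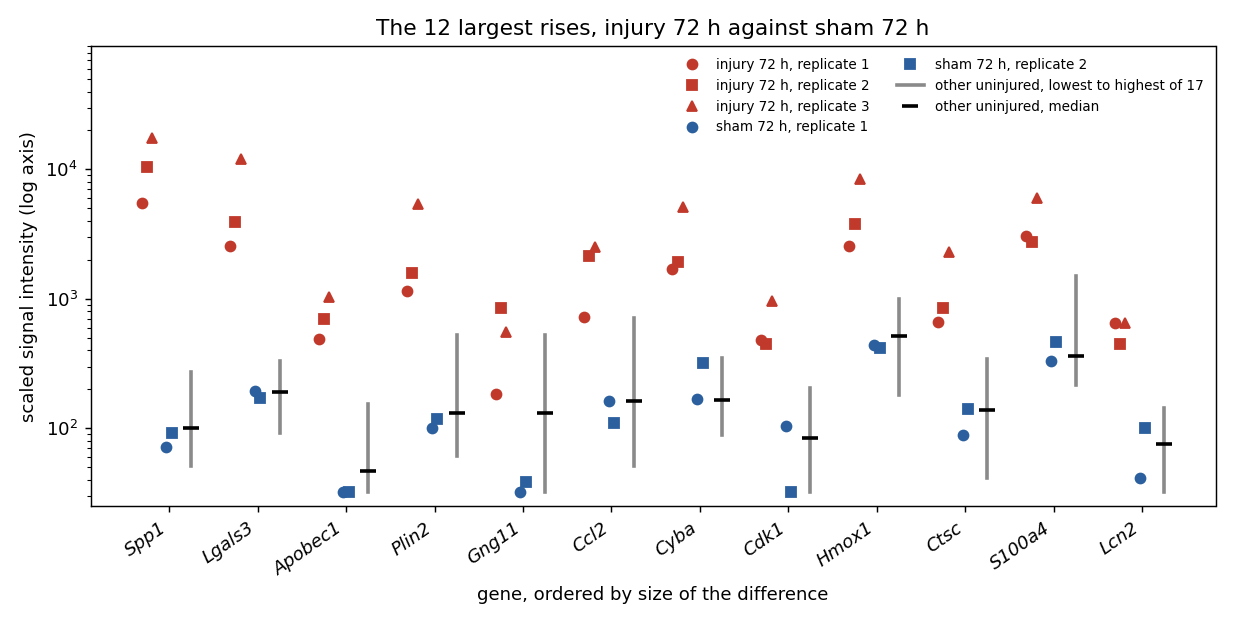
Scaled signal of the 12 largest rises (log axis), with the 3 injury 72 h arrays in red, the 2 sham 72 h arrays in blue, and the range and median of the other 17 uninjured arrays as grey bars and black ticks. Every injury array lies above both sham arrays for each gene; Gng11 is the one gene among them with an injury array, at 185, inside the range of the other uninjured arrays, which reaches 523.

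Of 12 tested markers of microglia and macrophages 6 rose and 0 fell, against 2.1% of all genes that rose, and the list's median difference was 1.72, against 0.066 for all genes. Lyz2, which encodes lysozyme, gave 4449.9, 4002 and 9487 after injury, against 725 and 736 in sham rats. Cyba, a subunit of the oxidase that makes superoxide in phagocytes, gave 1710.5, 1917 and 5126, against 168 and 320.5 in sham rats. In both genes the injury arrays stood clear of the sham arrays, with differences of 2.92 ± 0.36 and 3.46 ± 0.52 (limma adjusted p = 2.5e-06 and 0.000102). Cd53, a tetraspanin of white blood cells, gave 951, 1549.7 and 2919, against 289.8 and 175 (difference 2.85 ± 0.54, limma adjusted p = 0.00223). Aif1, which encodes the microglial protein Iba1, and Fcgr2b, an inhibitory receptor for antibodies, completed the 6, with differences of 2.15 and 2.37. The other probe sets of Aif1 differed by 2.33 and 0.28. Among the markers that did not pass, Cx3cr1, the fractalkine receptor of microglia, differed by 1.08 and Ptprc, the CD45 antigen of white blood cells, by 1.29. Summed over the 12 markers, signal was 24698, 25286 and 44885 in injured cortex, against 11764 and 11357 in sham cortex, with injury replicate 3 highest. In such tissue disks, more cells of a type and more RNA per cell cannot be told apart. Without sham replicate 2, Cd53 no longer passed (limma adjusted p = 0.103).

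Genes of reactive astrocytes rose in 5 of 14 tested cases and fell in 0, beside 2.1% and 0.66% of all genes, with a median difference of 1.18. Called or not, 11 of the 14 were higher than in sham cortex, where 53.8% of all genes were, and 3 were lower. Of these 3, 2 had every injury array below both sham arrays, as did 15.1% of all genes. Vim, which encodes the filament protein vimentin, gave 9895, 7187 and 10241 in injured cortex, against 1353 and 1181 in sham cortex. The 3 injury arrays lay close together and far above sham, and the rise was 7.12-fold (95% interval 3.78 to 13.4; log2 2.83 ± 0.45, limma adjusted p = 0.000192). Lcn2, which encodes lipocalin 2, a protein that binds iron carriers, gave 651, 449 and 653, against 41.5 and 101 in sham cortex, a difference of 3.15 ± 0.54 (limma adjusted p = 0.00069). Cd44, a receptor for hyaluronan and osteopontin, gave 375, 906 and 1370.0 after injury, against 157 and 57.0. Timp1, an inhibitor of matrix metalloproteinases, gave 2826, 4191 and 5284, against 938 and 1448. Neither gene's groups overlapped, and the differences were 3.04 ± 0.66 and 1.77 ± 0.38 (limma adjusted p = 0.00861 and 0.0074). The other probe set of Cd44 differed by 1.14 and that of Timp1 by 5.63. Hspb1, a small heat shock protein, was the fifth, with a difference of 1.42, although another of its probe sets differed by -0.06. None of 11 genes of resting astrocyte function was called, with a median of -0.04. Among them the water channel gene Aqp4 differed by 1.57 from sham rats (adjusted p = 0.153) and by -0.32 from the other uninjured rats. Lcn2 lost its call without sham replicate 1 (limma adjusted p = 0.0993), Timp1 without injury replicate 3 or sham replicate 1 (0.0772 and 0.237), and Cd44 without injury replicate 3 or sham replicate 2 (0.0779 and 0.245).

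Lysosomal, lipid and heme genes added large single rises, where 2.1% of all genes rose and 0.66% fell. Of 15 cathepsin and lysosomal genes 3 rose and 0 fell, with a median of 0.73. Grn, which encodes progranulin, a secreted protein needed for lysosome function, gave 8116, 7048 and 8159 after injury, against 2389 and 1958 in sham cortex. Ctsc, a protease that activates granule enzymes of leukocytes, gave 658, 854 and 2318, against 88.3 and 141. Both genes were separated from sham on every array, by 1.84 ± 0.34 and 3.29 ± 0.66 (limma adjusted p = 0.00157 and 0.00469), and the lysosomal protease gene Ctsl rose by 1.27. The other probe set of Ctsl differed by 0.26. Among 16 lipoprotein and lipid genes 3 rose and 1 fell. Plin2, which coats lipid droplets, gave 1159.6, 1592 and 5389.9 in injured cortex, against 101 and 119 in sham cortex. Its rise was 19.6-fold, with a 95% interval of 8.01 to 48.1 (log2 4.30 ± 0.64, limma adjusted p = 7.65e-05), and its other probe set differed by 2.39. The fatty acid binding protein genes Fabp5 and Fabp7 rose by 1.72 ± 0.28 and 2.09 ± 0.59. Hmox1, the enzyme that breaks down heme, was the one of 25 oxidative stress and metal genes to rise, with 2539.6, 3796 and 8375, against 437 and 419.6 in sham cortex. All injury arrays also lay above the other 17 uninjured arrays, whose highest value was 1003, and the rise was 10.1-fold (log2 3.34 ± 0.47, limma adjusted p = 4.32e-05). Plin2, Fabp5 and Hmox1 kept their calls with any 1 of the 5 arrays left out. Grn lost it without sham replicate 2 (limma adjusted p = 0.0717), Ctsc without injury replicate 3 or sham replicate 1 (0.0685 and 0.131), and Ctsl and Fabp7 without any 1 array other than injury replicate 1.

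Among the antigen presentation genes that rose were class II genes. Class II molecules show peptides taken up from outside to helper T cells, and in brain they mark activated microglia and entering immune cells. Of 18 tested genes 5 rose and 0 fell, beside 2.1% and 0.66% of all genes, with a median of 0.82. The 5 were the class II chains RT1-Da, RT1-Db1 and RT1-Bb, the peptide-loading chain RT1-DMb, and Cd74, the invariant chain that escorts class II. RT1-Da gave 3509, 2241 and 4037 after injury, against 726 and 764 in sham cortex. Cd74 gave 1557, 895 and 1829, against 228 and 349. In both genes every injury array was above both sham arrays and above all 17 other uninjured arrays, with differences of 2.09 ± 0.45 and 2.28 ± 0.52 (limma adjusted p = 0.0074 and 0.0116). RT1-DMb, RT1-Db1 and RT1-Bb rose by 1.92, 1.65 and 1.23. The class II genes RT1-DMa and RT1-Ba were not called, with differences of 1.17 and 0.78. B2m, the light chain of class I, differed by 0.86 from sham rats (adjusted p = 0.125) and rose by 1.07 against the other uninjured rats (limma adjusted p = 0.000624). RT1-Da, RT1-Db1, RT1-DMb and Cd74 each lost their call without injury replicate 3 and without either sham array, and RT1-Db1 also without injury replicate 2. For RT1-Da the limma adjusted p was then 0.0728, 0.124 and 0.0956.

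The promoters of the class II chains that rose are shown because such promoters are known for a short element, the Y box, bound by a CCAAT-binding factor. Searched on both strands, the letters CTGATTGG were found in the promoters of RT1-Da, RT1-Db1 and RT1-Bb, and in 1172 (3.5%) of 33469 rat promoters of the RefSeq table (build GRCr8, 250 bases before to 50 after each gene start). The letters were in 4.46% of the promoters of genes tested, in 8.33% of the 60 found for rising genes and in 0 of 19 for falling genes. They were also found in 5 of 13 promoters of antigen presentation genes that were not called, and not in that of Cd74. Each line is written 5′ to 3′ on the gene's strand with the match in capitals. RT1-Da is at chr20:4515165-4515464 (plus strand), RT1-Db1 at chr20:4560113-4560412 (minus) and RT1-Bb at chr20:4604069-4604368 (minus).
RT1-Da: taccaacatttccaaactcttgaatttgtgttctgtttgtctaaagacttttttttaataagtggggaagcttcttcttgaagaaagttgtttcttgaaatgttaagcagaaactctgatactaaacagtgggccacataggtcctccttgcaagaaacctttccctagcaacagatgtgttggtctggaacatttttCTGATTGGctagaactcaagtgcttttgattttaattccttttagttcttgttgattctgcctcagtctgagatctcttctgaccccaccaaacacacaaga
RT1-Db1: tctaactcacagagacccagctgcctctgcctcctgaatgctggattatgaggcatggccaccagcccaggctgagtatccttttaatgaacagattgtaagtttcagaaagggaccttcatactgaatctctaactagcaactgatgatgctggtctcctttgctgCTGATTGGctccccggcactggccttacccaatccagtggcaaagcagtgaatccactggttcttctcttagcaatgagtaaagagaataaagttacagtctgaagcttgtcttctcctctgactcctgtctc
RT1-Bb: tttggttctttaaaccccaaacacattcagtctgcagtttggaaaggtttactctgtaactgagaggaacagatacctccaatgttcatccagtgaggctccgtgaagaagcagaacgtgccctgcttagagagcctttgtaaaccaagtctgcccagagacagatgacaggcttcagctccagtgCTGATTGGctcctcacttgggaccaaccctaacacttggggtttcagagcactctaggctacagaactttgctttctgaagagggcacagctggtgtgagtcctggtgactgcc
The matches began at bases 199, 168 and 187 of the 300 and are a description of letters only.

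Genes of dividing cells rose in 4 of 15 cases and fell in 0, beside 2.1% and 0.66% of all genes, with a median of 1.02. Top2a, the topoisomerase that untangles DNA before mitosis, gave 799, 1338 and 1811 in injured cortex, against 161 and 156 in sham cortex. Cdk1, the kinase that starts mitosis, gave 477, 451 and 959, against 104 and 32.1, the second sham value being the floor. Both genes lay above all sham and other uninjured arrays on every injury array, with differences of 2.98 ± 0.47 and 3.35 ± 0.68 (limma adjusted p = 0.00017 and 0.00523). Mcm6, a subunit of the replication helicase, gave 817, 806 and 1654, against 349.8 and 317 in sham cortex (difference 1.63 ± 0.36, limma adjusted p = 0.0104). Ccnd1, which encodes cyclin D1 and drives entry into the cycle, rose by 1.45 ± 0.38, and 1 of its other 4 probe sets went the other way (-0.14). Pcna, the clamp of DNA polymerase, did not pass against sham rats (1.09, adjusted p = 0.0736) and rose by 1.42 against the other uninjured rats (limma adjusted p = 6.13e-05). Top2a kept its call with any 1 of the 5 arrays left out and lost it with its probe sets averaged (1.74, limma adjusted p = 0.0594), 1 of which differed by 0.10. Cdk1 lost it without injury replicate 3 or sham replicate 2 (limma adjusted p = 0.0612 and 0.214), Mcm6 without injury replicate 3 or either sham array (0.107, 0.114 and 0.152), and Ccnd1 without any 1 array other than injury replicate 1.

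The promoters of Cdk1 and Top2a are shown for 2 elements known from mitotic genes in human and mouse cells, the CCAAT box (ATTGG when read inverted) and the CHR element TTTGAA. Both strands were searched, and ATTGG is also part of the Y box letters. The full Y box letters CTGATTGG are in the Cdk1 promoter too, where only ATTGG is capitalized, and in that of Plk1, a cell cycle gene not called. Cdk1 (chr20:19265043-19265342, plus strand) held 3 CCAAT boxes and 2 CHR matches, and Top2a (chr10:84473044-84473343, minus strand) held 4 and 1. Capitals mark these matches.
Cdk1: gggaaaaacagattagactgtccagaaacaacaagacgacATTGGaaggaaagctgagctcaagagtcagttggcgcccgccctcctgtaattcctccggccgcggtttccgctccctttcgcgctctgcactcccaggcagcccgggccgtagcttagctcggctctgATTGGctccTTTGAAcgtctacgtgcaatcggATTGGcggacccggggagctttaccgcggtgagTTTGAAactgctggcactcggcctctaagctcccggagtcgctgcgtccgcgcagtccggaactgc
Top2a: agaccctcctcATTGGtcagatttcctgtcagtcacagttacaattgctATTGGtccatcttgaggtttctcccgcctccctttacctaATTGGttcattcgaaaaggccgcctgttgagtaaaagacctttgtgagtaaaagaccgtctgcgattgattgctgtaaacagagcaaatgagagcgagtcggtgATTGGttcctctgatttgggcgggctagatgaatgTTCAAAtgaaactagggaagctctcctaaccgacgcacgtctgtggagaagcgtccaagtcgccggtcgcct
The CCAAT letters were in 41.7% of the 60 promoters found for rising genes, against 37.9% of those of all genes tested and 37.5% of the whole table. The CHR letters were in 10%, against 10.6% and 18.3%. Among 10 promoters of cell cycle genes that were not called, 8 held the CCAAT letters and 4 the CHR letters. Of the 113 called genes, 79 had a promoter in the table.

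Signalling, matrix and protease genes were called as follows, where 2.1% of all genes rose and 0.66% fell. Among 18 cytokine and chemokine genes 2 rose, Spp1 and Ccl2, and 1 fell. Ccl2, which attracts monocytes, gave 723, 2152 and 2512 after injury, against 162 and 110.0 in sham cortex (difference 3.56 ± 0.76, limma adjusted p = 0.0074). Cx3cl1, the neuronal chemokine that binds the microglial receptor, gave 7198, 3176 and 3016, against 9953 and 9808, and fell by 1.27 ± 0.34 (limma adjusted p = 0.0374). The acute cytokine genes Il1b and Il6 did not pass, with differences of 0.72 and 0.97. Of 21 extracellular matrix genes 3 rose: Fn1 (fibronectin), Lum (lumican) and Mgp (matrix Gla protein), by 1.58, 1.82 and 1.72. The collagen gene with the smallest p, Col1a1, differed by 1.92 without passing. Of 16 protease and inhibitor genes 4 rose, the metalloproteinase inhibitors Timp1, Timp2 and Timp3 and the urokinase receptor Plaur, while the metalloproteinase genes Mmp9 and Mmp3 did not pass, at 0.41 and -0.47. Timp1 is also counted among the reactive astrocyte genes. Timp2 lost its call without injury replicate 3 (limma adjusted p = 0.182) or either sham array (0.242 and 0.212). Ccl2 lost its call without injury replicate 3 (0.076), without sham replicate 1 (0.0691) and without sham replicate 2 (0.145). Fn1, Lum, Mgp, Timp3, Plaur and Cx3cl1 each lost theirs without any 1 array other than injury replicate 1.

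Annexin, S100 and cytoskeletal genes gave 7 rises of 29 and no falls, beside 2.1% and 0.66% of all genes. In the complement, interferon and vessel lists below, the 1 call of each is not read as a result about the list. S100a4, a calcium-binding protein of motile cells, gave 3047, 2749 and 6011 in injured cortex, against 329 and 462 in sham cortex. Anxa2, a membrane-binding protein, gave 2615, 3349.9 and 7748, against 944 and 939, and its partner S100a10 gave 2532, 2420.4 and 4476, against 683 and 742. All 3 genes lay above the sham arrays and the other 17 uninjured arrays, with differences of 3.24 ± 0.60, 2.12 ± 0.39 and 2.08 ± 0.44. Anxa1, whose protein dampens leukocyte entry, rose by 2.38 ± 0.48, and Capg, Anxa3 and Arpc1b, genes of actin and membrane dynamics, by 2.53, 1.81 and 2.07. The other probe set of Anxa3 differed by 0.07. Complement, which tags debris for uptake, gave 1 rise among 11 genes: C1qb, part of its first component, had 6700.5, 5881 and 5995, against 1280.5 and 1115. Ifitm3, an antiviral membrane protein, was the one of 11 interferon response genes to rise, with 1565, 1944 and 2617, against 853 and 861. Tagln, a smooth muscle protein, was the one of 20 vessel genes, with 1475, 1693 and 1339, against 442 and 451, while the endothelial markers Pecam1 and Vwf differed by -0.16 and 0.23 without passing. Anxa2 kept its call with any 1 array left out and S100a4 lost it without sham replicate 1 (limma adjusted p = 0.0691). C1qb and Tagln lost it without any 1 array other than injury replicate 1, and Anxa1, S100a10 and Ifitm3 without injury replicate 3 or either sham array. Aif1, Fcgr2b, Hspb1, RT1-Bb, Capg, Anxa3, Arpc1b and the uncalled genes beside such counts fall outside the rule for named genes and were named after their values were seen.

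Markers of other cells that the disk could hold were read beside these groups, where 2.1% of all genes rose. A single call is not read as a result about its list. Neutrophil and lymphocyte markers gave 1 rise among 14, Cd37, a tetraspanin of B cells and other leukocytes, with 609.7, 867 and 888 after injury, against 198 and 218 in sham cortex (difference 1.90 ± 0.44, limma adjusted p = 0.0144). It lost its call without any 1 array other than injury replicate 1. The neutrophil genes S100a8 and S100a9 differed by 1.57 and 1.81 without passing. Summed over the 14 markers, signal was 3774, 6287 and 6126, against 2488 and 2480, and all 5 sums lay inside the 1932 to 7581 of the other uninjured arrays. None of 6 red blood cell, 13 skeletal muscle, 9 pituitary and choroid plexus or 12 striatal, thalamic and hippocampal markers was called, by limma's adjusted p. Ttr, a thyroid hormone carrier made by choroid plexus, ran high in sham replicate 2: it gave 5592, 309 and 1439 on the injury arrays, against 5429 and 32510.1 on the sham arrays. The part of these cells in the results was not tested.

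In 26 of the 27 falls injury replicate 1 was the highest of the 3 injury arrays, the exception being Insig1, and injury replicates 2 and 3 are the arrays with the higher antisense control signal. Nefm, the medium neurofilament subunit of axons, gave 2063, 863 and 588 in injured cortex, against 3904 and 3979 in sham cortex (difference -1.96 ± 0.43, limma adjusted p = 0.00956). Itpka, a kinase of dendritic spines, gave 1591, 127 and 42.7, against 1833 and 2050.4 (difference -3.24 ± 0.88, limma adjusted p = 0.0386). Here injury replicate 1 lay near the sham arrays and the other 2 injury arrays far below. Slc12a5, the chloride exporter KCC2 of mature neurons, gave 4855, 1146 and 876, against 6360.5 and 5609, and fell by 1.82 ± 0.49. Camk2g, a subunit of calcium-dependent kinase II, gave 704, 258 and 353, against 1491 and 1858, and fell by 2.06 ± 0.48. Its other probe set differed by -1.07. Kcns1, a modulatory potassium channel subunit, was low on all 3 injury arrays, with 47.3, 32.1 and 46.5, against 319 and 228. The second injury value is the floor. Kcns1 lay below all 17 other uninjured arrays too (difference -2.71 ± 0.71, limma adjusted p = 0.0328), and lost its call with the floor at the 25th percentile. Apoe, the main lipid carrier of brain, gave 11877, 4104 and 156, against 24681 and 15974, so that its fall of 3.33 ± 0.93 was deepest in injury replicate 3. Its other probe set differed by -0.41, and after quantile normalization the first differed by 0.11. Other falls by the rule for named genes included those of Syt12, a synaptotagmin (-2.27), Gnaz, a G protein subunit (-2.40), Rasl11b, a Ras-like protein (-2.73), Ndrg3 (-1.74) and Kalrn, a spine regulator (-1.98). Kalrn's other probe set differed by 1.21 and that of Gnaz by -0.10.

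Of the 17 named falls, 16 lost their call without any 1 array other than injury replicate 1, and Syt12 kept it also without injury replicate 2. Among all 27 falls, 4 had injury replicate 1 at least 2-fold below both sham arrays, as did 225 of the 4091 genes tested. Of the 86 rises, 66 had it at least 2-fold above both, as did 177 of all genes. Injury replicate 1 took part in the calls, and the rises were larger (median 2.20) than the falls (median -1.64), so the directions cannot be compared by these counts. Over the other 17 uninjured arrays, the log2 signal of the 27 genes that fell had a median correlation of -0.352 with the antisense control signal, against 0.122 for all genes. It was above 0 for 7 of the 27, against 2323 of 4091 genes tested. Rises also called against these arrays had a median of 0.219 (46 of 67 above 0), and the other rises 0.260 (14 of 19). Sham 4 h replicates 3 and 4 had the highest control signal of the 17, at 789 and 745. These arrays also had the lowest median correlations with the other rat arrays, 0.662 and 0.537. Their weight in the correlations with the control signal was not tested. With the antisense control signal as a covariate 25 genes were called, all of them rises, and 0 of the 27 falls remained, although all 27 kept their sign, with a median of -1.07, against -1.64 without the covariate. Against the other uninjured arrays 22 of the 27 were called with the covariate (median -1.21) and 21 without it (median -1.14). The control signal of the injury arrays, at 83.0, 291 and 293, lay on both sides of the median of 261 on those arrays. The covariate could therefore change this second comparison little, and its counts do not show that the falls outlast the adjustment. The part of the control signal in the falls was not tested.

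**Figure D3:**
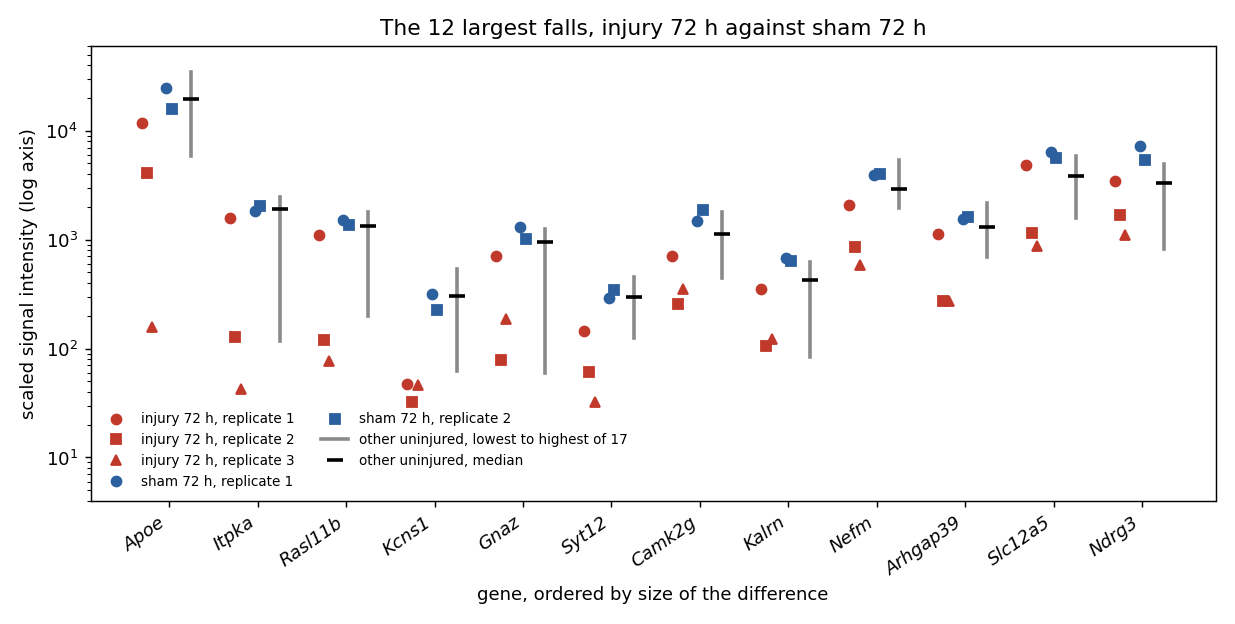
Scaled signal of the 12 largest falls (log axis), with the 3 injury 72 h arrays in red, the 2 sham 72 h arrays in blue and the other 17 uninjured arrays as grey ranges with black medians. Injury replicate 1 is the highest of the 3 injury arrays for each gene, as for Itpka at 1591 beside 127 and 42.7, against 1833 and 2050.4 on the sham arrays.

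Neuronal and synaptic genes as a list were lower in 28 of 30 cases, where 53.8% of all genes were higher, and 3 passed, beside 0.66% of all genes: Nefm, Thy1, a neuronal surface glycoprotein (-0.95), and Map2, a dendritic microtubule protein (-1.16). Thy1 gave 14970.2, 10584 and 8952 in injured cortex, against 23199 and 20401 in sham cortex, with no overlap. Map2's other probe sets disagreed, from -2.82 to 1.30. The list's median was -0.71, against 0.066 for all genes, and its summed signal was 116938, 92507 and 66579, against 162870 and 154374. Both sham sums lay inside the range of the other uninjured arrays, 88245 to 170617, as did injury replicates 1 and 2, while injury replicate 3 lay below it. No genes passed among 31 glutamate and GABA receptors (median -0.39), 37 ion channels (-0.33), 20 inhibitory neuron and neuropeptide genes (-0.43) or 12 myelin genes (-0.49) in limma's adjusted test. The nearest to the threshold were the GABA receptor subunit Gabrb2, with 3398, 1639 and 1002, against 4832 and 4548 (adjusted p = 0.061), and the channel subunit Kcnab2 (-0.87, adjusted p = 0.0605). With probe sets averaged both turned sign, to 0.18 and 0.032. Cholesterol synthesis genes gave 2 falls of 15, beside 0.66% of all genes. Insig1, which holds back the sterol sensor, gave 520.3, 474 and 679, against 1779.8 and 1736 (difference -1.67 ± 0.45), and Msmo1, a sterol oxidase, gave 2242, 2006 and 1851, against 4511 and 4184 (-1.10 ± 0.31). These were low on all 3 injury arrays, yet both lost their call without any 1 array other than injury replicate 1. Oxidative phosphorylation genes had a median of -0.39 against sham rats and 0.08 against the other uninjured rats, with 0 of 24 called.

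**Figure D4:**
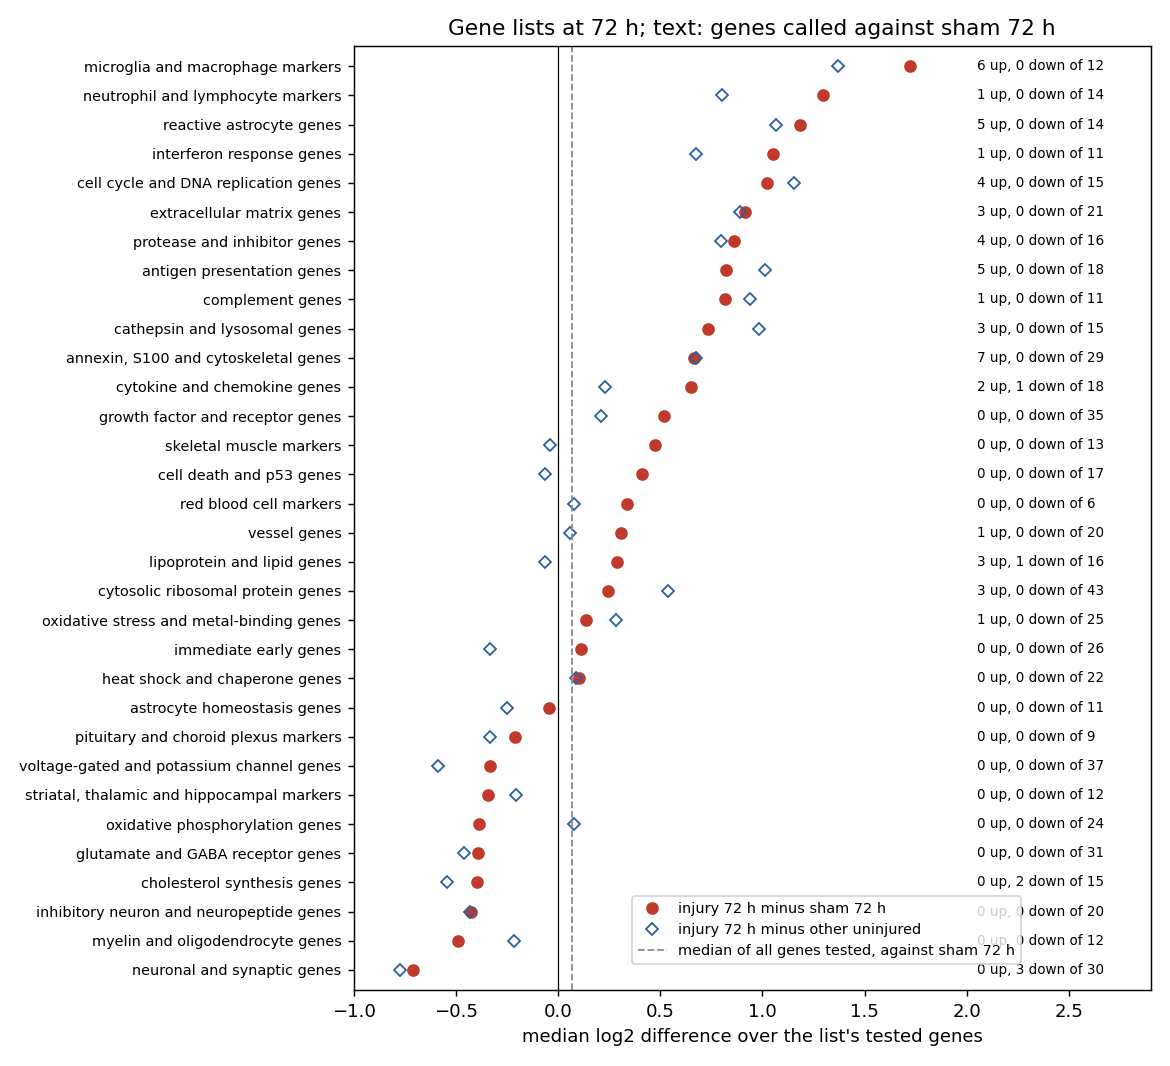
Median log2 difference over the tested genes of each of the 32 lists, injury 72 h against sham 72 h (red circles) and against the other uninjured arrays (blue diamonds), with the number of genes called against sham 72 h at the right. Medians run from 1.72 for microglia and macrophage markers to -0.71 for neuronal and synaptic genes, and the dashed line marks the median of all genes, 0.066.

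The other uninjured arrays were then used as controls in place of the sham arrays of the same time. Against them 277 genes were called at 72 h, 178 higher (4.35%) and 99 lower (2.42%), which is 6.77% of those tested (19.7% at an unadjusted p under 0.05). Sham 72 h against the same arrays gave 0 calls (limma), with 343 genes (8.38%) at an unadjusted p under 0.05. Since both comparisons share the injury arrays, they are set side by side only. Of the 86 rises 67 were also called against the other uninjured arrays and 50 had every injury array above all 17 of them, as did 117 (2.86%) of all genes. Of the 27 falls 21 were called and 3 lay below all 17, as did 12 (0.293%) of all genes. Thy1, Map2, Ndrg3 and Kalrn were among the falls not called there. The 27 falls had median signals of 1015 in injured cortex, against 2658 in sham cortex and 1991 on the other uninjured arrays. High sham 72 h values are thus part of what selects the falls. The 67 rises had median signals of 1575 in injured cortex, against 327 in sham cortex and 327 on the other uninjured arrays. The 19 rises not called there had 496, against 72.2 and 244, and low sham 72 h values are part of what selects this set. An example is the ribosomal protein gene Rps24, with 439, 1536 and 3873 after injury, against 335 and 344 in sham rats. The other uninjured arrays spanned 506 to 1805 for it, so its rise of 2.02 against sham became 0.54 against them (adjusted p = 0.481). Rpl30, with 408, 931 and 541, against 143 and 32.1, likewise differed by 0.88 (adjusted p = 0.487), and Timp3, with 974, 805 and 469, against 159 and 222, by 0.69 (adjusted p = 0.268). Without injury replicate 3, the count of 277 was 102.

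Against these controls 8 of 30 neuronal and synaptic, 5 of 31 receptor and 7 of 37 channel genes were called lower, beside 2.42% of all genes. Against sham 72 h the counts were 3, 0 and 0, beside 0.66% of all genes, and the difference between the comparisons was not tested. The next 3 genes were chosen after their values were seen. Kcnd3, a potassium channel gene, gave 32.1, 72.2 and 47.6 in injured cortex, against 68.2 and 91.8 in sham cortex and 90.0 to 434 on the other uninjured arrays. Gria3, a glutamate receptor subunit, gave 202, 331 and 221, against 318 and 475 in sham cortex and 393 to 1058 on the others. Gabra5, a GABA receptor subunit, gave 232, 253 and 264, against 496 and 544 in sham cortex and 298 to 871 on the others. In these 3 genes all injury arrays lay below all 17 other uninjured arrays, and none passed against sham 72 h. Of their sham 72 h arrays, 1 for Kcnd3 and 1 for Gria3 lay below that range too, and both for Gabra5 lay inside it.

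The injury effect at 72 h was set beside those at 24 h and 21 d, each against sham rats of its own time (3 against 2 arrays). At 24 h 11 genes rose (0.269%) and 0 fell, and at 21 d 0 were called. Of the 11, 9 were also called at 72 h, and the other two were Hspa1a, an inducible chaperone, and S100a8. Tested directly, the effect was larger at 72 h than at 24 h for 1 gene (0.0244%), Apobec1, by 4.43 (limma adjusted p = 0.00464), with 4.99% of genes at an unadjusted p under 0.05. Its signal averaged 124 at 8 h, 63.9 at 24 h, 706 at 72 h and 79.1 at 21 d in injured cortex, highest at 72 h among these times. Against 21 d, the effect at 72 h was larger for 6 genes (0.147%) and smaller for 1 (0.171% together, and 7.19% at an unadjusted p under 0.05). Spp1 led with a difference of effects of 6.54 ± 0.94 (limma adjusted p = 0.000247). Its injury effect was 0.03 at 30 min, 2.48 at 4 h, 4.67 at 8 h, 4.92 at 24 h, 6.94 at 72 h and 0.41 at 21 d. Lgals3 followed a like course, with 0.13, 1.07, 2.09, 2.55, 4.76 and 1.01 on the log2 scale at those times. Top2a differed little until 24 h (0.41) and stood at 2.98 at 72 h and -0.31 at 21 d. Lcn2 had effects of 4.12 at 8 h, 4.21 at 24 h, 3.15 at 72 h and 0.18 at 21 d, and its difference between 72 h and 24 h did not pass. The single call against 24 h was lost without either sham 72 h array or without sham 24 h replicate 2. The count of 7 against 21 d was 17 without injury 72 h replicate 1, 3 without injury 72 h replicate 3 or injury 21 d replicate 1 or 3, and 1 without any 1 of the sham arrays of 72 h or 21 d.

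**Figure D5:**
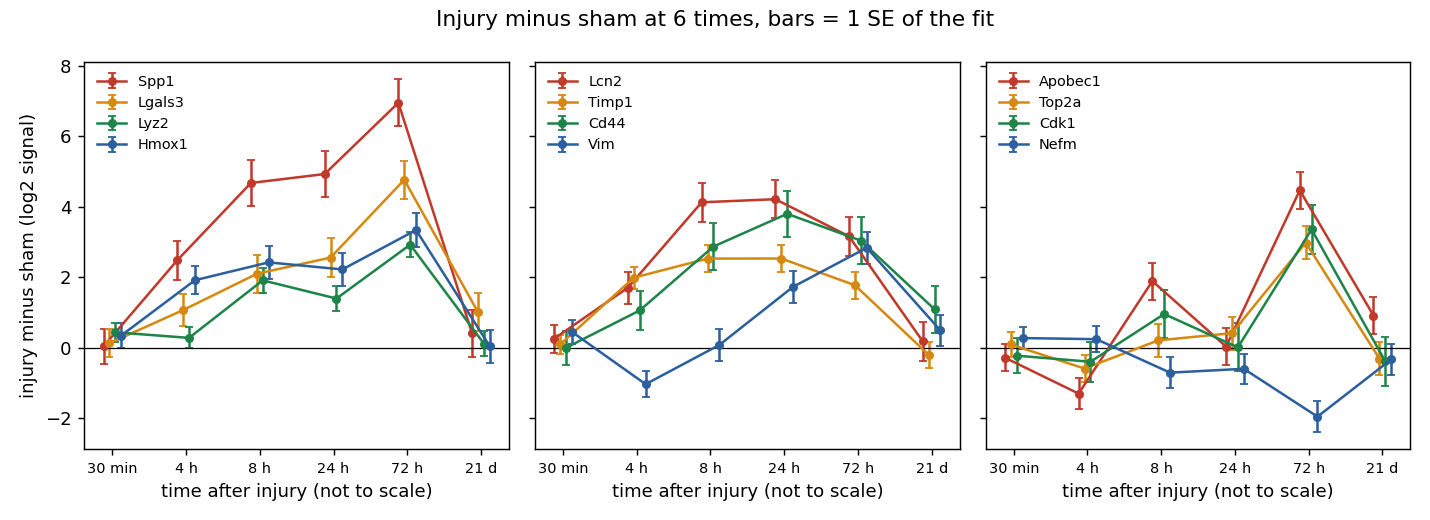
Injury minus sham on the log2 scale at 6 times (bars, 1 SE of the fit; the time axis is not to scale) for 12 genes in 3 panels. Spp1 reaches 6.94 and Lgals3 4.76 at 72 h, Lcn2 stands at 4.21 at 24 h and 3.15 at 72 h, and Apobec1 and Top2a stand at 0.03 and 0.41 at 24 h and at 4.46 and 2.98 at 72 h.

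The remaining lists gave few or no calls against sham 72 h. None passed among 26 immediate early genes (median 0.11), 22 heat shock and chaperone genes (0.10), 35 growth factor and receptor genes (0.52) or 17 cell death and p53 genes (0.41), in limma's adjusted test. The immediate early gene Jun gave 724, 1584 and 1617 in injured cortex, against 402 and 394 in sham cortex (difference 1.63, adjusted p = 0.171). Hspa1a gave 196, 429.7 and 372, against 35.1 and 179 (adjusted p = 0.204). Tgfb1, a growth factor of repair, gave 307, 235 and 1129, against 85.5 and 84.7 (difference 2.35, adjusted p = 0.115). In all 3 genes the groups did not overlap, and none passed the test. Ribosomal protein genes gave 3 rises of 43, Rps24, Rpl30 and Rps27l, beside 2.1% of all genes, and a median of 0.24. All 3 lost their call without any 1 array other than injury replicate 1.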

How the data were processed

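RNA of rat cortex was measured on an oligonucleotide array of 8799 probe sets, 59 of them controls, with 1 array per rat. The deposited values are linear intensity values per probe set. The authors scaled them so that, as the values show, the mean trimmed by 2% at each end is about 801 on every array; the software is not given in the sources used here. Mouse arrays were not used here.

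Values below the pooled 10th percentile of the rat arrays (32.1) were raised to it, and log2 was taken. A probe set was kept if at least 3 arrays exceeded 202, the pooled 40th percentile (7162 probe sets). Of these, 271 had several gene symbols and 1062 none, and they were tested apart. Each gene was represented by its probe set of highest mean, which gave 4091 genes. All 39 rat arrays in 13 groups were fitted with limma 3.58.1 in R 4.3.3 (trended eBayes, 26 residual degrees of freedom), and adjusted p came from the Benjamini-Hochberg method over all 4091 genes. The number of arrays limits the precision. Errors beside differences are SE of the fit, and fold intervals are 95% intervals. On simulated data for injury 72 h against sham 72 h over 4091 genes, the test found 56.7% of the 4-fold and 14.6% of the 2-fold changes, with 1 false call among 74. The simulated noise was independent between genes and equally wide on all arrays, with no shift of whole arrays. The real 72 h arrays differ in technical measures, so these shares do not give the error rate of the real calls.

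The genes named are the 12 largest rises and falls at 2-fold or more without overlap, up to 4 called members of each list (2 uncalled ones where none was called), and up to 4 in each direction for the differences between times. The members and lists were chosen with earlier results of these data known. Plots were made in Python 3.11.15 (matplotlib 3.10.9). Same-numbered injury and sham arrays correlated in their deviations from the group means at 0.088 and 0.047, so the numbers were not treated as pairs. Alternatives covered scaling, floor, filter, probe set choice, array weights, the antisense covariate, control groups and each array left out.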

Additional observations from a re-analysis of the deposited data

Results flagged for a closer look

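The injury effect differed between times for several genes, by limma's test of the difference itself. Apobec1 had an effect larger by 4.43 at 72 h than at 24 h (SE 0.74, adjusted p = 0.00464), and by 3.55 than at 21 d (adjusted p = 0.0248). Against 21 d, the effect at 72 h was also larger for Spp1 by 6.54 (adjusted p = 0.000247), Lyz2 by 2.80 (adjusted p = 0.00845), Lgals3 by 3.76, Hmox1 by 3.30 and Top2a by 3.29 (adjusted p = 0.0226 for each of these 3).

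Lsamp, a surface protein of limbic neurons, went the other way, with a difference of effects of -4.56 (SE 0.98, adjusted p = 0.0329). Its signal was 82.0, 65.8 and 169.8 in injured cortex at 72 h, against 306 and 490.0 in sham cortex. It averaged 452 in injured cortex at 21 d, against 76.6 in sham cortex, so both times contributed. Its effect at 72 h alone did not pass (-1.99, adjusted p = 0.131).

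Among probe sets that carry several gene symbols or none, which were left out of the gene counts, 16 of 1333 were called at 72 h (1.2%), 13 higher and 3 lower. Their genes are not named here. No measure of the 3 groups of 4 to 10 arrays had an array past the critical gap in 9 tests. Both 72 h groups are smaller and were not covered. The test looks for 1 array apart and can miss 2 that stand apart together. In sham 4 h, the median correlations with the other rat arrays were 0.925, 0.919, 0.662 and 0.537, and no array passed the gap.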

How the results depend on the processing

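The 113 calls of injury against sham at 72 h became 65 with quantile normalization, 25 with the antisense covariate, 19 with the 5 arrays fitted alone, 239 with all uninjured arrays as 1 control group, 376 without 4 arrays that stand apart at other times, 762 with array weights and 7 with injury replicate 1 as the only injury array. Leaving out 1 array at a time gave 18 to 326. The 277 calls against the other uninjured arrays became 742 without those 4 arrays, 737 with array weights and 105 with injury replicate 1 alone, and 102 to 343 with 1 array left out. For sham 72 h against the other uninjured arrays, the 0 calls became 1 with probe sets averaged, 59 without the 4 arrays, 319 with array weights and 0 to 2 with 1 array left out. The 1 call of 72 h against 24 h became 187 with array weights, 0 with injury replicate 1 alone and 0 to 2 with 1 array left out. The 7 calls of 72 h against 21 d became 3 with quantile normalization, 2 with the covariate, 28 without the 4 arrays, 465 with array weights, 0 with injury replicate 1 alone and 1 to 17 with 1 array left out. The cause of these shifts was not tested. The antisense control difference ran from 1.09 to 2.08 with 1 array left out.

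Signs turned in 10 cases: Apoe with quantile normalization (0.11), Kcnab2, S100b and Gabrb2 with probe sets averaged (0.032, 0.089 and 0.18), Slc4a1 with the covariate (-0.084) and with injury replicate 1 alone (-0.13), Aqp4 with all uninjured arrays as control (-0.11) and with injury replicate 1 alone (-0.00281), and Ndufs6 and Atp5po with injury replicate 1 alone (0.045 and 0.088). The share of calls that were higher was 76.1%, against 83.1% with quantile normalization, 66.7% with median centring and 100% with the covariate. The median of all genes was 0.066, against -0.064 with quantile normalization and -0.103 with median centring. With the replicate number as a block, 129 genes were called at 72 h, 373 against the other uninjured arrays, 0 for sham, and 1 and 9 for the differences between times. Median centring (87), all probe sets unfiltered (100), the higher floor of the 25th percentile (119) and averaged probe sets (107) kept the first count within 1.5 times. Genes near the floor have differences that are lower bounds.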
